A study of Mus musculus with 30 samples.

Results

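The serum amyloid A family of the mouse is described here by its 4 members Saa1, Saa2, Saa3 and Saa4, of 29654 gene names on the array, across blood of irradiated and unirradiated mice of the genotypes p38DKI, p38DN and p38WT. Each member was found by its gene name among the non-control probes and had 1 probe. The family was selected on measured values: Saa2, Saa1 and Saa3 had ranks 1, 2 and 3 by log2 change after irradiation in p38DKI blood, of 18726 genes. Every value of that comparison, and every difference that contains the irradiated p38DKI arrays, is therefore given as a description without a test.

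The 6 groups were p38DKI irradiated, p38DKI unirradiated, p38DN irradiated, p38DN unirradiated, p38WT irradiated and p38WT unirradiated, with 5 one-colour arrays each and 30 in all. All animals were male mice of the strain C57BL/6J, the irradiated ones received 7 Gy of x-rays, and blood was taken by cardiac puncture 24 h later into a tube that stabilizes RNA. The genotype names are used as the labels write them, and neither the alleles nor the age of the animals is given in the sources used here. By its title, the series concerns the part of signaling by p38, a stress-activated protein kinase, in gene expression as a measure of radiation exposure. Its design text counts 5 independent experiments in each group.

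Serum amyloid A proteins are small apolipoproteins of high density lipoprotein that rise in plasma during inflammation. In the mouse, Saa1 and Saa2 are made mainly by hepatocytes in response to interleukin-6, interleukin-1 and tumor necrosis factor, whose signals reach the genes through STAT3, C/EBP and NF-kB factors. Saa3 is made largely outside the liver, by macrophages, adipocytes and epithelial cells. Saa4 is the constitutive member and is expressed in liver without an inflammatory stimulus.

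The 4 genes lie side by side on chromosome 7 of the mouse, in the RefSeq annotation of GRCm38.p6. Saa3 spans chr7:46711998-46719615, Saa4 chr7:46727992-46732603, Saa1 chr7:46740497-46743181 and Saa2 chr7:46751833-46754313. All 4 members matched this table by symbol. Saa1, Saa2 and Saa3 each had a higher mean level in irradiated than in unirradiated p38DKI blood. For these 3 genes, the 250 bases before the transcript start that the RefSeq promoter table uses are therefore shown. That start is the edge of the gene span for Saa2, at 46751833, but lies inside the span for Saa1, at 46742980, and for Saa3, at 46715676, so these 2 windows are not upstream of the whole annotated gene. They read 5′ to 3′ on the strand of the gene, and capitals mark matches to the letters searched, at chr7:46742981-46743230 (minus strand) for Saa1, chr7:46751583-46751832 (plus strand) for Saa2 and chr7:46715677-46715926 (minus strand) for Saa3.
Saa1: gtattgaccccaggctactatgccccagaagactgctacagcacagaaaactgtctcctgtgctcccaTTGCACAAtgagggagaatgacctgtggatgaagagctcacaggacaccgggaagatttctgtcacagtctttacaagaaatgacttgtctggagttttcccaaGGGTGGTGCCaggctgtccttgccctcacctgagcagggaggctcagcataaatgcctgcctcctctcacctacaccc
Saa2: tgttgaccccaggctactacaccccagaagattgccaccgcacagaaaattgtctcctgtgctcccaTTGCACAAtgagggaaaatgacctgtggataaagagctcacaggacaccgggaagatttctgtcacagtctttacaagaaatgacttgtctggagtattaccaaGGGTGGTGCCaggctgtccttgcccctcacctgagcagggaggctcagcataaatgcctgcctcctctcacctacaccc
Saa3: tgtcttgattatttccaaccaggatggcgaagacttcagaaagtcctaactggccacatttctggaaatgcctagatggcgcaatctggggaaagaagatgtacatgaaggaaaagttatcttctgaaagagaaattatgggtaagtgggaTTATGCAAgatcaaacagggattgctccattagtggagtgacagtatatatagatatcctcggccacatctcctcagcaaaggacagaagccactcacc

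The Saa1 and Saa2 windows were identical at 94.8% of 251 aligned positions. The Saa3 window was identical to that of Saa1 at 50.2% of positions and to that of Saa2 at 50.6%. A C/EBP pattern, TTGCNNAA on either strand, was matched once in each of the 3 windows, as TTGCACAA in Saa1 and Saa2 and as TTATGCAA in Saa3. It begins 182 bases before that start in Saa1, 183 in Saa2 and 99 in Saa3. Of all 32851 promoter windows of the same length, 9.56% hold this pattern. The loose NF-kB pattern GGGNNNNNCC was matched as GGGTGGTGCC in Saa1 and Saa2, and 45.8% of all windows hold it. The STAT pattern TTCNNNGAA, present in 7.02% of all windows, was matched in none of the 3.

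The probes that measured the members are 60 bases long, with positions in mm9 as the files give them. The Saa1 probe (chr7:53996070-53996129) runs over the end of the coding sequence, and the Saa3 probe (chr7:53970389-53970448) lies inside it. The first 56 bases of the Saa1 probe and the whole of the Saa3 probe are shown because the levels of Saa1 and Saa3 rest on them, with the stop codon of Saa1 in capitals.
Saa1 probe: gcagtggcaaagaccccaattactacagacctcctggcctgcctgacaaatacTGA
Saa3 probe: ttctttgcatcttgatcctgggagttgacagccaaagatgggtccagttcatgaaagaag

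The Saa2 probe (chr7:54009622-54009681) and the Saa4 probe (chr7:53983662-53983721) lie past the coding sequence. Whether the Saa1 probe also binds Saa2 transcripts was not tested, and the levels of different probes are not set against each other here. No member was saturated on any array.

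Levels are log2 of the scanner's processed intensity relative to the 75th percentile of the array, which lay at intensities between 43.3 and 230.4. Between 39.7 and 63.2% of probes per array were well above background by the scanner's own call. Precision is limited by having 5 arrays a group. In whole blood, a change in the number of cells of a type and a change in RNA per cell cannot be told apart. The p38DKI and p38WT arrays lay on slides 1 to 5 and the p38DN arrays on slides 6 to 10, scanned in an earlier period, so between p38DN and the other genotypes batch and genotype cannot be told apart. The p38WT unirradiated arrays lay on slides 1 and 2 and the irradiated ones on slides 2 and 3. The p38DKI unirradiated arrays lay on slides 3 and 4 and the irradiated ones on slides 4 and 5. In these 2 genotypes, slide and irradiation can be told apart only through slides 2 and 4.

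Liver transcripts were present on some of these blood arrays. Alb, the serum albumin gene of hepatocytes, stood at 1.92, 10.32, -1.73, 2.28 and 3.31 on p38DKI irradiated arrays 1 to 5, against 5.44, -2.38, -2.30, 0.81 and -0.22 on p38DKI unirradiated arrays 1 to 5. It stood at 2.68, 5.42, -2.32, 5.60 and 2.57 on p38DN irradiated arrays, against 2.96, 9.20, 1.75, 10.22 and 10.24 on p38DN unirradiated arrays. On p38WT arrays it was well above background on 3 of 5 after irradiation, at -5.10 to -1.02, and on 0 of 5 without, at -5.96 to -3.59. Alb was therefore highest on p38DKI irradiated array 2 and on p38DN unirradiated arrays 2, 4 and 5.

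The mean level of 45 hepatocyte markers, here called the hepatocyte score, singled out the same 4 arrays, at 8.70, 6.69, 7.64 and 7.65 above the median of all arrays. All 49 markers found on the array design were well above background on each of these 4, against 13 to 36 on the p38WT irradiated arrays and 15 to 24 on the p38WT unirradiated ones. On the other p38DKI and p38DN arrays 17 to 48 were, so these markers were not confined to the 4 arrays. The differences of Saa1, Saa2 and Saa3 that contain the 4 arrays highest in the score are given with and without them. The labels do not say how RNA typical of liver came into the samples.

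Unirradiated p38DN arrays 4 and 5 were nearly the same. Over 12383 probes well above background on every array, their log2 values differed by a median absolute deviation (MAD) of 0.145, against 0.219 to 1.228 for the other 59 pairs of arrays within a group. Repeated spots of one probe within a single array differed by 0.136 on array 4 and 0.127 on array 5. The labels count them as separate samples, and they are kept so, but the p38DN differences of Saa1, Saa2 and Saa3 are also given with their mean as 1 sample, which leaves 4 in that group.

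Saa3, the member made largely outside the liver, was the one whose rise passed the test in p38DN blood. Its level was 6.73, 7.92, 7.91, 7.22 and 6.33 on p38DN irradiated arrays 1 to 5, against 4.52, 1.20, 0.71, 2.76 and 2.61 on p38DN unirradiated arrays 1 to 5. The groups did not overlap, and the highest unirradiated array was array 1. The difference was 4.86 on the log2 scale (29-fold, SE 1.01, 95% interval 2.80 to 6.92, limma adjusted p = 6.43e-04), the rank 3 change of 18726 genes. An exact two-sided permutation test of the 5 and 5 arrays gave p = 0.00794, the smallest it can give. In that comparison 27.9% of all genes passed (29.1% without the 4 arrays highest in the hepatocyte score) and 12.4% had all irradiated arrays above all unirradiated ones.

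Albumin did not follow Saa3 in p38DN blood. The unirradiated arrays 4 and 5, with Alb at 10.22 and 10.24, had Saa3 at 2.76 and 2.61. The irradiated array 3, with Alb at -2.32 and not well above background, had Saa3 at 7.91. On that array 41.6% of all probes were well above background, in a range of 39.7 to 63.2% over the arrays. Without the 4 arrays highest in the hepatocyte score, which leaves unirradiated arrays 1 and 3, the Saa3 difference was 4.60 (SE 1.4, adjusted p = 0.0169), and with the score as a covariate it was 4.79 (adjusted p = 0.00183). With unirradiated arrays 4 and 5 averaged it was 4.94 (SE 1.09, adjusted p = 0.00141). Each of the slides 6 to 10 held 1 irradiated and 1 unirradiated p38DN array, and the irradiated array was higher on all 5, by 2.21 to 7.20.

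In p38DKI blood, Saa3 stood at 8.12, 7.45, 9.52, 8.97 and 9.71 on irradiated arrays 1 to 5, against 3.57, 1.44, 2.76, 4.05 and 3.79 on unirradiated arrays. Every irradiated array lay above every unirradiated one, as was the case for 7.23% of all genes in that comparison. The difference of 5.63 (49.6-fold, SE 1.01) is among the values that chose the family. The irradiated array with the most liver RNA, array 2, was the lowest of its group for Saa3, and without the 4 arrays highest in the hepatocyte score the difference was 5.96.

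In p38WT blood, Saa3 varied more between irradiated animals. Its level was 8.76, 6.03, 1.37, 5.67 and 8.98 on p38WT irradiated arrays 1 to 5, against 1.06, 5.36, 4.61, 3.96 and 3.08 on p38WT unirradiated arrays. The groups overlapped because irradiated array 3 lay below 4 of the 5 unirradiated arrays. On that array 39.7% of probes were well above background, the lowest share of all arrays. The difference of 2.55 (5.85-fold, SE 1.01, 95% interval 0.48 to 4.61) missed the threshold, with a limma adjusted p of 0.0601 and an exact permutation p of 0.135. Without irradiated array 3 it was 3.75 (adjusted p = 0.00159), and without unirradiated array 2, the highest of its group, it was 2.99 (adjusted p = 0.0421).

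The order of the group means for Saa3 was p38DKI irradiated (8.76 ± 0.95), p38DN irradiated (7.22 ± 0.71), p38WT irradiated (6.16 ± 3.08), p38WT unirradiated (3.61 ± 1.66), p38DKI unirradiated (3.12 ± 1.06) and p38DN unirradiated (2.36 ± 1.50), each as mean ± SD over 5 arrays. Neighbours in this order overlapped at every step.

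**Figure D1:**
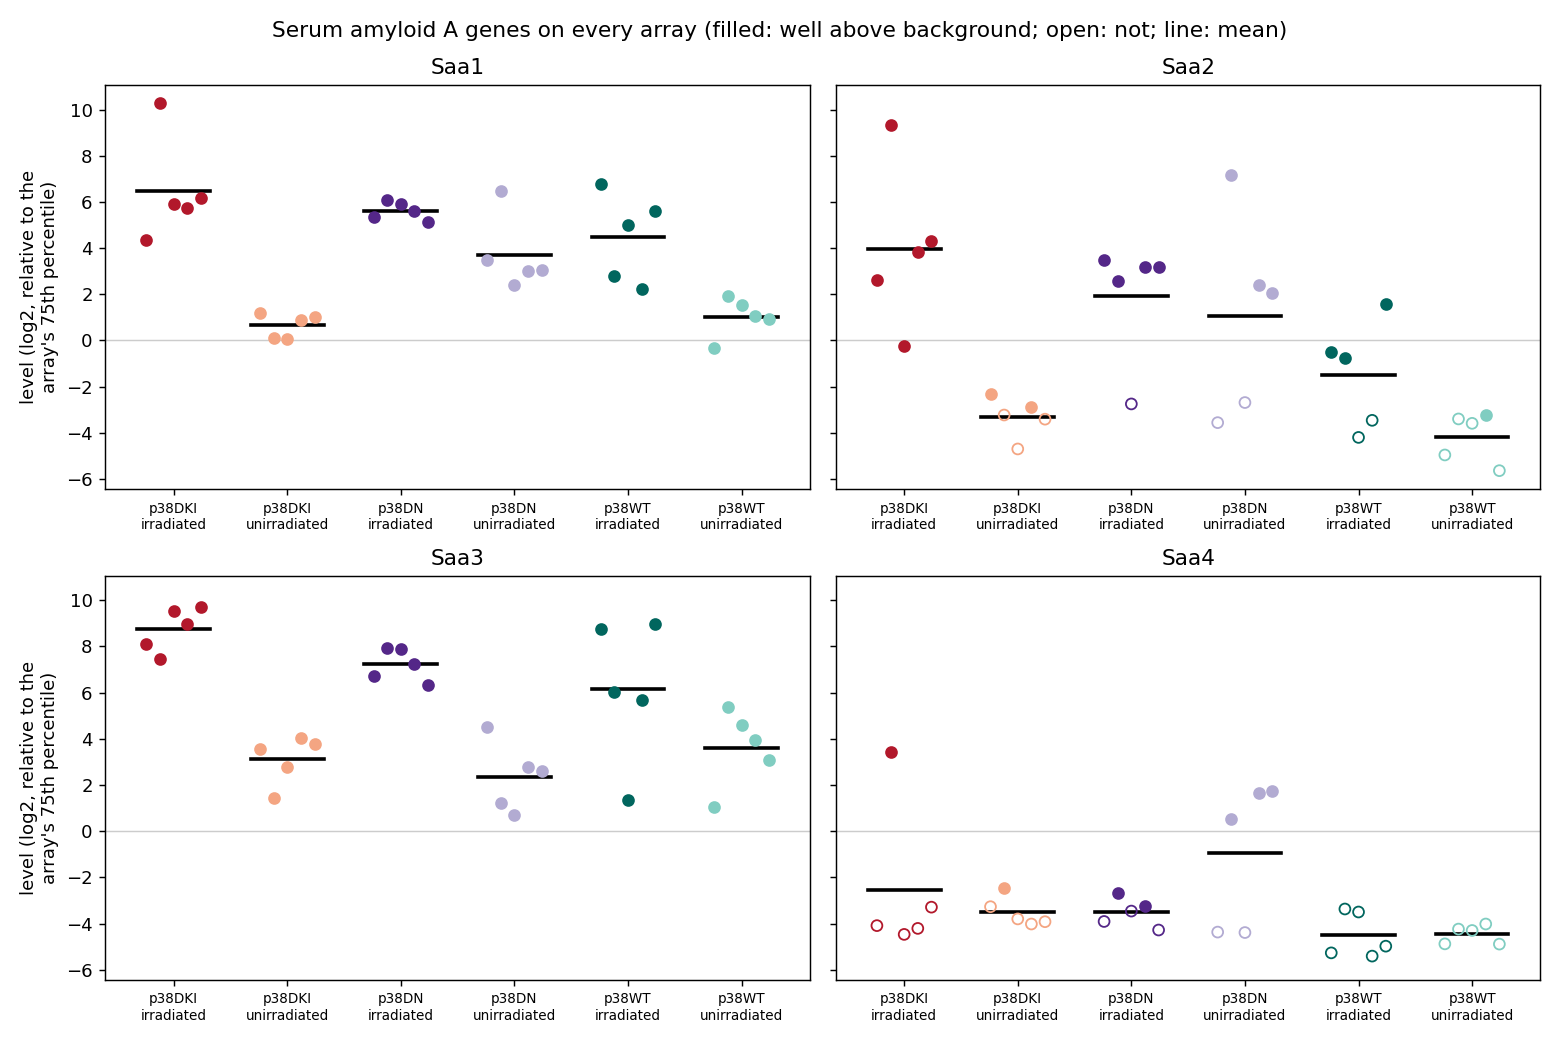
Level of each serum amyloid A gene (log2, relative to the array's 75th percentile) on the 5 arrays of each group, with a line at the group mean, filled points for arrays where the probe was well above background and open points where it was not. Saa3 points of irradiated p38DKI (7.45 to 9.71) and p38DN (6.33 to 7.92) lie above those of their unirradiated groups, whereas Saa4 is filled on p38DN unirradiated arrays 2, 4 and 5 and p38DKI irradiated array 2 at levels of 0.52 to 3.41.

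Saa1, a major acute phase reactant of the liver, was the member whose rise passed the test in p38WT blood. In p38DKI blood, Saa1 stood at 4.33, 10.27, 5.92, 5.73 and 6.15 on irradiated arrays 1 to 5, against 1.19, 0.11, 0.06, 0.89 and 1.01 on unirradiated arrays. The irradiated arrays all lay above the unirradiated ones, with a difference of 5.83 (56.8-fold, SE 0.862) that is given as a description. Array 2, highest in Alb, was also highest in Saa1, and without the 4 arrays highest in the hepatocyte score the difference was 4.88. Irradiated array 3 had Saa1 at 5.92 and the lowest Alb of its group, at -1.73. Alb was well above background there, as were 29 of 49 hepatocyte markers.

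In p38DN blood the Saa1 difference did not pass over all arrays. Its level was 5.35, 6.10, 5.92, 5.61 and 5.14 on p38DN irradiated arrays 1 to 5, against 3.49, 6.48, 2.40, 3.02 and 3.05 on p38DN unirradiated arrays. Only unirradiated array 2, one of the 4 highest in the hepatocyte score, reached into the irradiated range and exceeded it. The difference of 1.93 (3.82-fold, SE 0.862, 95% interval 0.17 to 3.70, adjusted p = 0.0949) missed the threshold. Without adjustment over genes, the limma p was 0.0331 and the exact permutation p was 0.0476. The Saa1 difference was 2.63 (adjusted p = 0.0231) without unirradiated array 2 and 2.68 (adjusted p = 0.0182) without the 4 arrays highest in the hepatocyte score. It was 2.92 (adjusted p = 0.00722) with the score as a covariate, and 1.77 (adjusted p = 0.167) with unirradiated arrays 4 and 5 averaged.

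The 3 unirradiated p38DN arrays rich in liver RNA did not share a Saa1 level. Array 2 combined Alb at 9.20 with Saa1 at 6.48 and Saa2 at 7.18. Arrays 4 and 5, with Alb about 1 unit higher at 10.22 and 10.24, had Saa1 at 3.02 and 3.05 and Saa2 at 2.41 and 2.05.

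In p38WT blood, where the rise passed, the Saa1 level was 6.78, 2.80, 4.98, 2.22 and 5.59 on p38WT irradiated arrays 1 to 5, against -0.34, 1.93, 1.55, 1.05 and 0.92 on p38WT unirradiated arrays. The groups did not overlap, although irradiated array 4 was only slightly above unirradiated array 2. The difference was 3.45 on the log2 scale (11-fold, SE 0.862, 95% interval 1.69 to 5.22, limma adjusted p = 0.00355), at rank 17 of 18726 genes, and the exact permutation test gave its smallest possible p of 0.00794. In that comparison 27.1% of all genes passed and 12.7% had all irradiated arrays above all unirradiated ones, so 1 of the 3 members tested is a share near that of all genes.

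The Alb probe was not well above background on p38WT irradiated arrays 3 and 4, where Saa1 stood at 4.98 and 2.22. With the hepatocyte score as a covariate, the Saa1 difference in p38WT blood was 3.18 (adjusted p = 0.00182). Slide 2 held 3 irradiated and 1 unirradiated p38WT array, with a difference of 3.94. The call was lost with slides as a fixed block (3.94, adjusted p = 0.316) and after normexp background correction (2.64, adjusted p = 0.122).

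By group mean, Saa1 was ordered p38DKI irradiated (6.48 ± 2.24), p38DN irradiated (5.62 ± 0.40), p38WT irradiated (4.48 ± 1.92), p38DN unirradiated (3.69 ± 1.61), p38WT unirradiated (1.02 ± 0.86) and p38DKI unirradiated (0.65 ± 0.53), as mean ± SD over 5 arrays. Neighbours overlapped except for p38DN unirradiated, at 2.40 and above, and p38WT unirradiated, at 1.93 and below, a step between batches.

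Saa2, whose protein is nearly the same as that of Saa1 and which is induced with it in liver, was dim on most unirradiated arrays, and its difference passed neither in p38DN nor in p38WT blood over all arrays. It was well above background on 5 of 5 p38DKI irradiated and 2 of 5 p38DKI unirradiated arrays, on 4 of 5 p38DN irradiated and 3 of 5 p38DN unirradiated arrays, and on 3 of 5 p38WT irradiated and 1 of 5 p38WT unirradiated arrays. It passed the filter on dim probes only through the irradiated p38DKI and p38DN arrays.

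In p38DKI blood, Saa2 had 2.61, 9.31, -0.26, 3.85 and 4.32 on irradiated arrays 1 to 5, against -2.31, -3.23, -4.70, -2.88 and -3.41 on unirradiated arrays. The irradiated arrays all lay above the unirradiated ones, and the highest and lowest of them, arrays 2 and 3, were also the highest and lowest in Alb. The difference of 7.27 (SE 1.64) is a description, set against a group in which 3 of 5 arrays were not well above background. It was 5.94 without the 4 arrays highest in the hepatocyte score and 4.18 after normexp background correction. Unirradiated array 1, with Alb at 5.44, had Saa2 at -2.31 and Saa1 at 1.19.

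In p38DN blood, Saa2 had 3.49, 2.58, -2.75, 3.16 and 3.18 on irradiated arrays 1 to 5, against -3.56, 7.18, -2.69, 2.41 and 2.05 on unirradiated arrays. The 3 unirradiated arrays above 0 were those rich in liver RNA, and the 1 irradiated array below 0, array 3, had Alb not well above background. The difference was 0.85 (SE 1.64, 95% interval -2.51 to 4.22, adjusted p = 0.744) over all arrays, -0.31 without unirradiated array 1, 2.38 without unirradiated array 2 and 0.08 after normexp background correction. Without the 4 arrays highest in the hepatocyte score, Saa2 was well above background on neither of the 2 unirradiated arrays left. The 3 unirradiated arrays left out were those with Saa2 above 0. Its mean was 1.93 on irradiated arrays and -3.13 as measured on those 2 (difference 5.06, SE 1.47, adjusted p = 0.0128). Saa2 was 21.2-fold higher after irradiation when each of the 2 was raised to the array's lowest signal well above background. Irradiated array 3, also not well above background, was kept as measured, so this is not a strict lower bound. The Saa2 difference was 3.76 (adjusted p = 0.00816) with the score as a covariate, and 1.14 (adjusted p = 0.683) with unirradiated arrays 4 and 5 averaged.

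In p38WT blood the Saa2 level was -0.52, -0.78, -4.20, -3.46 and 1.58 on irradiated arrays 1 to 5, against -4.96, -3.40, -3.59, -3.23 and -5.64 on unirradiated arrays. The irradiated arrays 3 and 4 lay within the unirradiated range, and the difference of 2.69 (SE 1.64, 95% interval -0.68 to 6.05, adjusted p = 0.241) did not pass.

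For Saa2 the order of group means was p38DKI irradiated (3.97 ± 3.48), p38DN irradiated (1.93 ± 2.64), p38DN unirradiated (1.08 ± 4.35), p38WT irradiated (-1.48 ± 2.35), p38DKI unirradiated (-3.31 ± 0.88) and p38WT unirradiated (-4.16 ± 1.07), with overlap between all neighbours.

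Saa4, the constitutive liver member, did not pass the filter on dim probes and was not tested. It was well above background on 1 of 5 p38DKI irradiated and 1 of 5 p38DKI unirradiated arrays, on 2 of 5 p38DN irradiated and 3 of 5 p38DN unirradiated arrays, and on 0 of 10 p38WT arrays. Its 4 levels above 0 were 3.41 on p38DKI irradiated array 2 and 0.52, 1.66 and 1.75 on p38DN unirradiated arrays 2, 4 and 5, the 4 arrays highest in the hepatocyte score. All other levels lay between -5.41 and -2.45.

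Over the 30 arrays, Pearson's r with Alb was 0.48 for Saa1, 0.77 for Saa2, 0.04 for Saa3 and 0.78 for Saa4. With the hepatocyte score it was 0.47, 0.77, -0.02 and 0.88 in the same order. Among the members, r was 0.79 between Saa1 and Saa2, 0.65 between Saa1 and Saa3, and 0.45 between Saa2 and Saa3. These are descriptions over arrays of 6 groups that share treatment, genotype and batch.

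**Figure D2:**
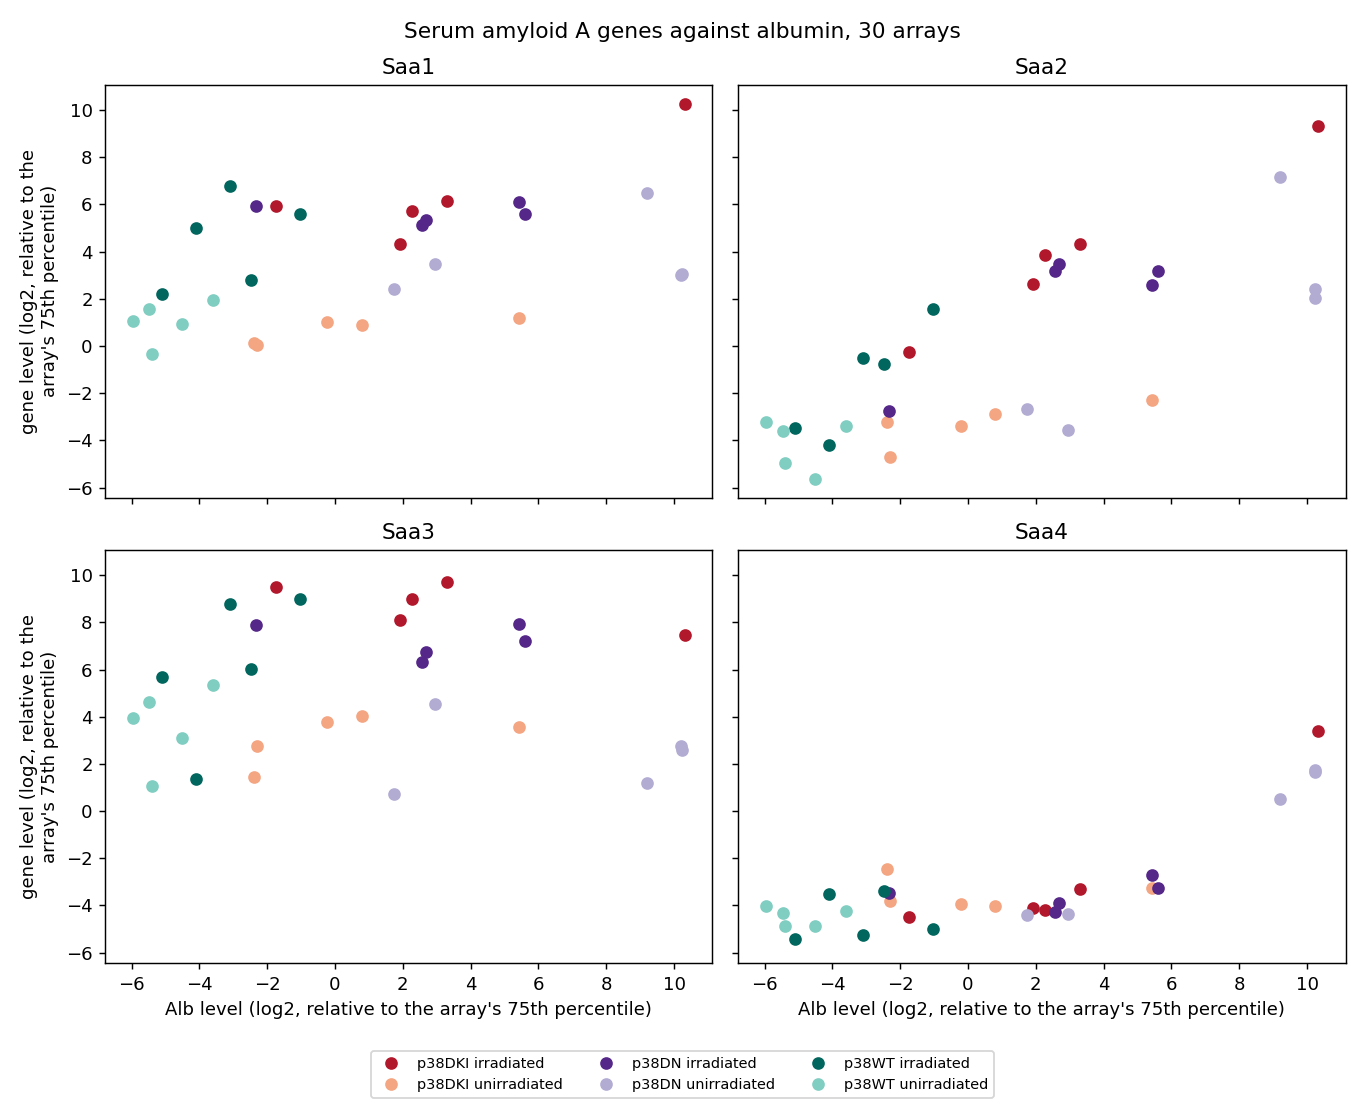
Level of each serum amyloid A gene against the level of Alb on the same array (both log2, relative to the array's 75th percentile), with 1 point per array and colours for the 6 groups. Saa4 stays below -2 except at the far right (Alb 9.20 to 10.32), Saa2 increases with Alb (r = 0.77), and Saa3 shows no such slope (r = 0.04).

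The 3 genotypes were then compared. Without irradiation, p38DKI minus p38WT was -0.37 for Saa1 (SE 0.862, 95% interval -2.14 to 1.40), 0.86 for Saa2 (SE 1.64, -2.51 to 4.22) and -0.49 for Saa3 (SE 1.01, -2.55 to 1.57). Saa2 was well above background on 2 of 5 p38DKI and 1 of 5 p38WT unirradiated arrays, so its value sets mostly background signals against each other. None of the 3 passed (limma adjusted p of 0.974 to 0.984), in a comparison where 0.101% of all genes did. The intervals allow differences of more than 1 log2 unit in either direction.

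The irradiation effect in p38DN minus that in p38WT was -1.52 for Saa1 (SE 1.22, 95% interval -4.02 to 0.98, adjusted p = 0.521), -1.83 for Saa2 (SE 2.32, -6.59 to 2.92, adjusted p = 0.706) and 2.31 for Saa3 (SE 1.42, -0.61 to 5.23, adjusted p = 0.383). None passed, and 1.64% of all genes did. Saa3 passed in p38DN and Saa1 in p38WT blood, but the difference between genotypes did not pass for either. Without the 4 arrays highest in the hepatocyte score the values were -0.78 for Saa1 (adjusted p = 0.699), 2.37 for Saa2 (adjusted p = 0.48) and 2.06 for Saa3 (adjusted p = 0.522), so that of Saa2 had the opposite sign. Leaving out single arrays gave -2.08 to -0.82 for Saa1, -2.99 to -0.31 for Saa2 and 1.11 to 3.02 for Saa3, and with the hepatocyte score as a covariate Saa1 had -0.25. With p38DN unirradiated arrays 4 and 5 averaged they were -1.68, -1.54 and 2.39 for Saa1, Saa2 and Saa3 (adjusted p = 0.521, 0.791 and 0.428).

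After irradiation, p38DKI minus p38WT was 2.0 for Saa1, 5.44 for Saa2 and 2.59 for Saa3, and the effect in p38DKI minus that in p38WT was 2.37, 4.59 and 3.09 in the same order. These hold the arrays that chose the genes and have no test. Without the 4 arrays highest in the hepatocyte score, of which p38DKI irradiated array 2 is the one in these groups, the difference after irradiation was 1.05, 4.11 and 2.92, and that of the effects 1.43, 3.25 and 3.41. After irradiation, Saa3 differed by 1.4 without p38WT irradiated array 3, and Saa2 by 2.10 with the hepatocyte score as a covariate and by 3.44 after normexp background correction. The arrays of the 2 irradiated groups overlapped for each of the 3 genes. Within slide 4, the only one with both p38DKI groups, the irradiated array exceeded the mean of 3 unirradiated arrays by 3.68 for Saa1, 6.27 for Saa2 and 4.59 for Saa3. No slide held irradiated arrays of both p38DKI and p38WT, and with slides as a fixed block the difference after irradiation was 0.42 for Saa1, 4.45 for Saa2 and -0.23 for Saa3.

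**Figure D3:**
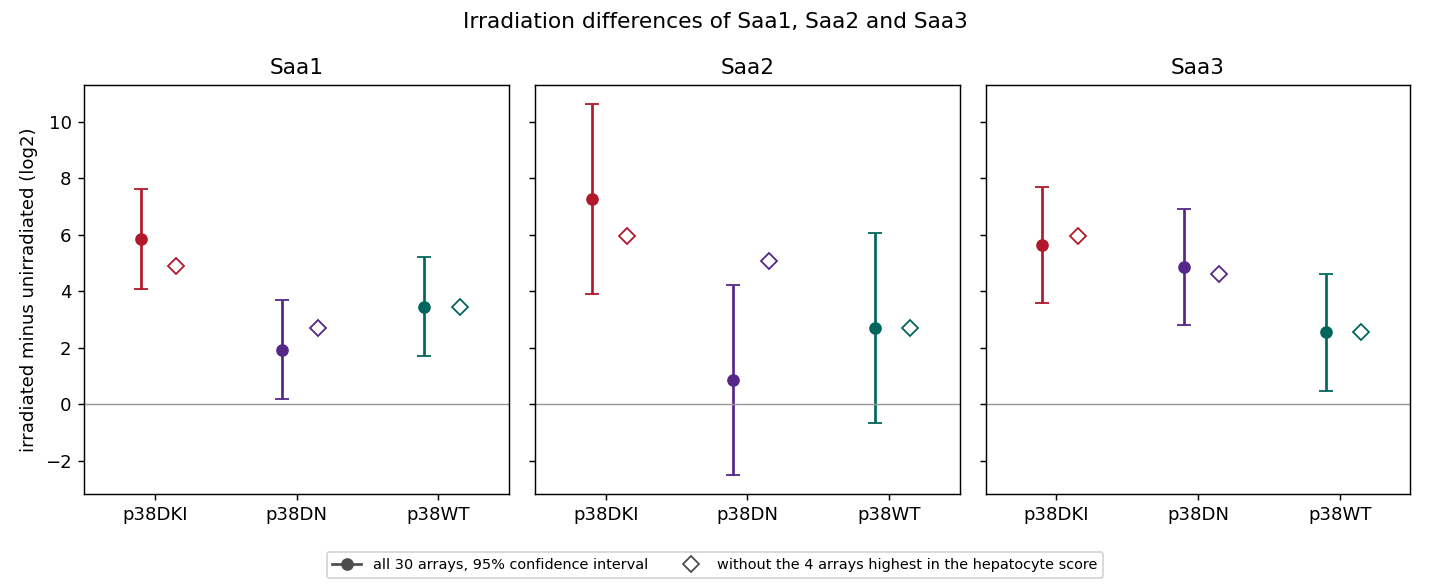
Irradiated minus unirradiated difference (log2) of Saa1, Saa2 and Saa3 in p38DKI, p38DN and p38WT blood. Circles with bars are the values over all 30 arrays with 95% confidence intervals, and diamonds leave out the 4 arrays highest in the hepatocyte score. The p38DKI values chose the genes and are a description. The diamond for Saa2 in p38DN lies at 5.06, outside the interval of -2.51 to 4.22 over all arrays, and rests on 2 unirradiated arrays on which Saa2 was not well above background.

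Other genes listed with the acute phase response, among them the signaling genes Stat3 and Socs3, were set beside the family. Of 34 in the list, 29 were tested, and in p38DKI blood their median log2 change was 2.78, against -0.25 for all genes. That median contains p38DKI irradiated array 2, the highest in the hepatocyte score, and is not given without it. The mean level of the list was 5.74 on array 2 and -0.18 to 1.53 on the other p38DKI irradiated arrays. On p38DKI unirradiated arrays it was -1.25 to 0.67. In p38DN blood 2 genes of the list rose and 0 fell (median -1.06, against 0.01 for all genes), where 17.6% of all genes rose and 10.3% fell. Without the 4 arrays highest in the hepatocyte score 10 rose and 0 fell (median 1.53, against -0.14 for all genes), where 13.9% of all genes rose and 15.1% fell. In p38WT blood 6 rose and 0 fell (median 0.86, against -0.03 for all genes), where 15% of all genes rose and 12.1% fell. The shares of all genes in these sentences are the background of the list counts that follow.

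Lcn2, an iron-sequestering protein of neutrophils and liver, averaged 4.19 ± 0.70 in irradiated and 4.15 ± 0.25 in unirradiated p38DN blood (SD, n = 5 each), a difference of 0.03 (limma adjusted p = 0.97). In p38WT blood it averaged 5.12 ± 0.51 in irradiated and 2.57 ± 1.13 in unirradiated animals, a rise of 2.55 (adjusted p = 4.74e-04). Lrg1, a leucine-rich glycoprotein of neutrophils and liver, likewise rose by 2.66 in p38WT blood (adjusted p = 3.95e-04). In p38DN blood the Lrg1 difference of 0.67 did not pass, but it passed without the 4 arrays highest in the hepatocyte score (1.77, adjusted p = 0.0184) and with the score as a covariate (1.27, adjusted p = 0.0463). Steap4, a metalloreductase induced by inflammation, rose by 3.37 in p38WT blood (adjusted p = 1.72e-05), with the probe well above background on 5 of 5 irradiated and 1 of 5 unirradiated arrays. It passed the filter on dim probes only through these irradiated p38WT arrays, so its difference is set against mostly background signal.

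Hp, which encodes haptoglobin, had a difference of -1.15 in p38DN blood (adjusted p = 0.225), which turned to 0.94 without the 4 arrays highest in the hepatocyte score (adjusted p = 0.127), and rose by 2.15 in p38WT blood (adjusted p = 0.0212). Cd14, the co-receptor for endotoxin on monocytes, rose in both, by 2.69 in p38DN (adjusted p = 3.52e-04) and by 1.64 in p38WT blood (adjusted p = 0.0202). Orm1 and Orm2, the orosomucoids of liver, were well above background on 0 and 1 of 10 p38WT arrays. Their p38DN differences of -2.96 and -2.49 did not pass (adjusted p = 0.122 and 0.264) and turned to 0.65 and 1.54 without those 4 arrays (adjusted p = 0.633 and 0.319). Apcs, serum amyloid P component, did not pass the filter on dim probes.

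**Figure D4:**
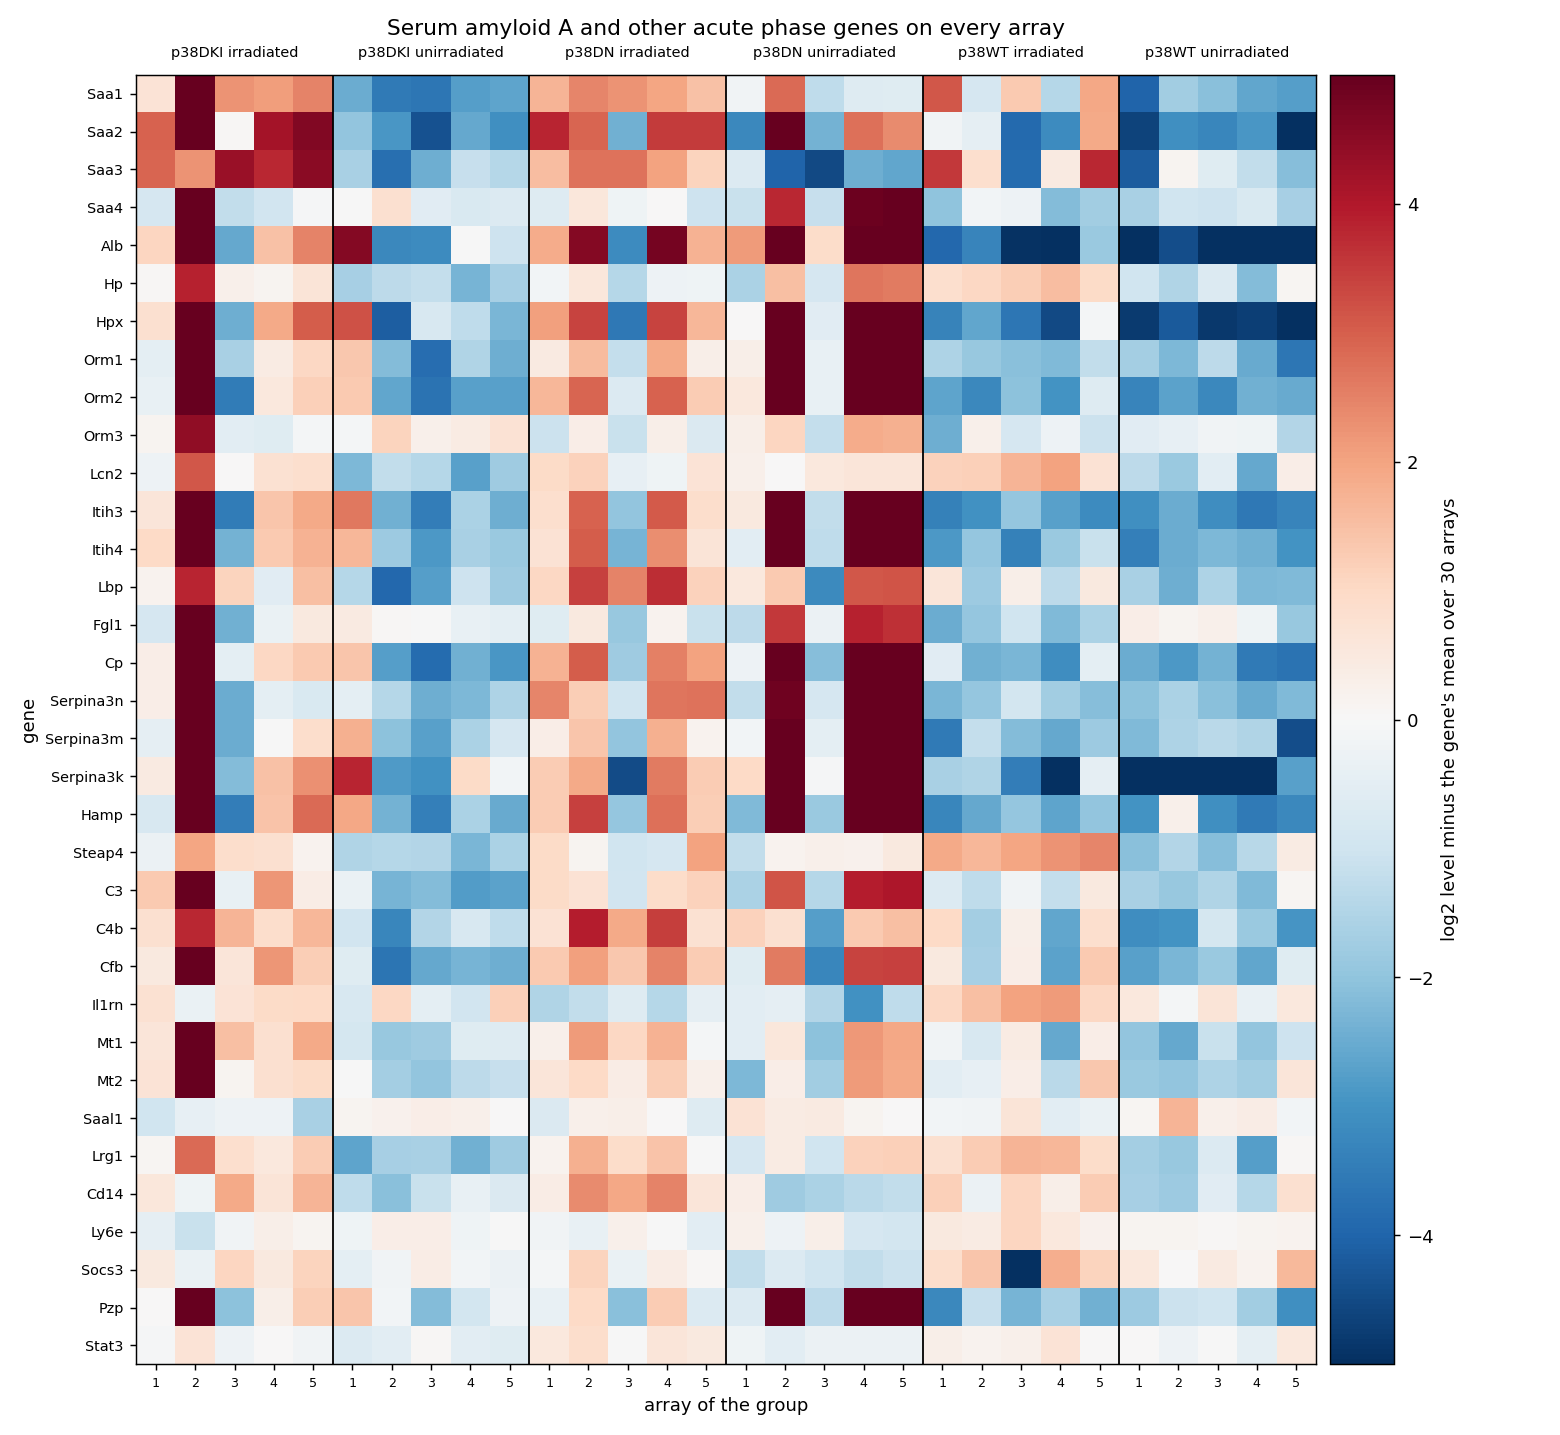
Level of the serum amyloid A genes, Alb and 29 further acute phase genes on each array (log2, minus the gene's mean over the 30 arrays), in columns of 5 arrays per group. The colour scale ends at 5 above and below the mean. The rows of Alb, Hpx, Orm1, Orm2 and Itih3 are darkest red on p38DKI irradiated array 2 and p38DN unirradiated arrays 2, 4 and 5, whereas the Saa3 row is red on every irradiated array of p38DKI and p38DN and blue on p38DN unirradiated arrays 2, 4 and 5.

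Of 12 cytokines known to induce serum amyloid A, 11 were tested, and 4 rose and 0 fell in p38DN blood, while 3 rose and 1 fell in p38WT blood. In p38DN blood, 1 rose and 1 fell without the 4 arrays highest in the hepatocyte score. Il1b had a difference of 0.58 in p38DN blood (adjusted p = 0.321) and rose by 1.83 in p38WT blood (adjusted p = 0.00175), at 5.13 ± 0.21 in irradiated and 3.30 ± 1.12 in unirradiated p38WT animals (SD, limma over all genes). Tnf had 0.28 in p38DN blood (adjusted p = 0.472) and rose by 1.05 in p38WT blood (adjusted p = 0.00425). Il6, the main inducer in liver, was well above background on 0 of 10 p38DN arrays, so no difference is given there. In p38WT blood it fell by 1.66 (adjusted p = 0.0298), with the probe well above background on 2 of 5 irradiated and 4 of 5 unirradiated arrays. Il18, a cytokine of activated macrophages, rose by 1.0 in p38DN blood (adjusted p = 0.00856), and Ifng rose in both, by 1.23 in p38DN (adjusted p = 0.0225) and by 1.28 in p38WT blood (adjusted p = 0.0186). In p38DN blood, Ifng had 0.74 and did not pass without the 4 arrays highest in the hepatocyte score (adjusted p = 0.176).

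Among 32 receptors and transcription factors upstream of the family, 29 were tested. In p38DN blood 8 rose and 2 fell (6 and 4 without the 4 arrays), and in p38WT blood 6 rose and 3 fell, not far from the shares of all genes. Cebpd, a C/EBP factor of the acute phase response, rose in both, by 0.91 in p38DN (adjusted p = 0.0464) and by 1.64 in p38WT blood (adjusted p = 7.34e-04). The p38DN call was lost with the hepatocyte score as a covariate (0.74, adjusted p = 0.123) and with unirradiated arrays 4 and 5 averaged (0.97, adjusted p = 0.0535). Cebpb and Stat3 rose in p38DN blood, by 1.30 (adjusted p = 0.00804) and 0.81 (adjusted p = 0.00338), and had 0.16 and 0.33 in p38WT blood (adjusted p = 0.794 and 0.251). Il6st, the signaling subunit of the interleukin-6 receptor, fell by 1.75 in p38WT blood (adjusted p = 9.81e-05), and Rel, an NF-kB subunit, fell by 0.95 in p38DN (adjusted p = 0.0215) and by 1.44 in p38WT blood (adjusted p = 9.09e-04). Socs3, the feedback inhibitor of STAT3 signaling, did not pass in either, at 1.26 in p38DN and -0.72 in p38WT blood (adjusted p = 0.277 and 0.579). The p38WT value rests on irradiated array 3, at -3.22 and not well above background, and was 0.73 without it (adjusted p = 0.0965). Jak2, a kinase of cytokine receptors, rose by 1.25 in p38DN (adjusted p = 0.00172) and by 0.78 in p38WT blood (adjusted p = 0.0453), or 0.73 without p38WT irradiated array 3 (adjusted p = 0.085).

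Of 20 genes that bind or clear serum amyloid A, 17 were tested, and 5 rose and 4 fell in p38DN blood (4 and 3 without the 4 arrays), while 8 rose and 2 fell in p38WT blood. Fpr2 and Fpr1, formyl peptide receptors of neutrophils of which Fpr2 binds serum amyloid A, had differences of 0.74 and 0.72 in p38DN blood (adjusted p = 0.105 and 0.107). In p38WT blood they rose by 2.56 and 2.52 (adjusted p = 3.44e-06 and 3.59e-06). Tlr2, a receptor for bacterial lipoproteins, had 0.32 in p38DN blood (adjusted p = 0.43) and rose by 0.93 in p38WT blood (adjusted p = 0.0171). Ctsd, a lysosomal protease that degrades serum amyloid A, rose by 1.96 in p38DN blood (adjusted p = 2.60e-06) and by 1.99 in p38WT blood (adjusted p = 1.67e-06). Abca7, a lipid transporter, rose by 1.54 (adjusted p = 1.27e-04) and 1.14 (adjusted p = 0.00247) in the same order.

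Markers of cells that can make Saa3 also differed between irradiated and unirradiated blood. Of 18 macrophage markers tested, 13 rose and 1 fell in p38DN blood (median 2.41), where 17.6% of all genes rose. In p38WT blood 8 rose and 0 fell (median 1.02), where 15% of all genes rose. Leaving out the 4 arrays highest in the hepatocyte score, 10 rose and 1 fell in p38DN blood (median 2.21, against -0.14 for all genes), where 13.9% of all genes rose. The mean level of these markers ranged from 1.37 to 2.22 on p38DN irradiated arrays and from -1.19 to 0.62 on unirradiated ones, and from -0.37 to 1.56 on p38WT irradiated and from -0.69 to 0.33 on unirradiated arrays. Marco, a scavenger receptor of tissue macrophages, rose by 4.89 in p38DN blood (SE 0.778, adjusted p = 3.89e-05) and by 3.58 in p38WT blood (adjusted p = 0.00112). Cd163 and Gpnmb did not pass the filter on dim probes.

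Of 27 stromal, epithelial and adipose markers tested, 10 rose and 1 fell in p38DN blood, and 1, the keratin gene Krt19, rose and 0 fell in p38WT blood. In p38DN blood, 5 rose and 2 fell without the 4 arrays highest in the hepatocyte score, near the shares of 13.9% and 15.1% of all genes. The fatty acid binding protein gene Fabp4 rose by 2.44 in p38DN blood (adjusted p = 6.47e-04). The part of these cells in the Saa3 difference was not tested.

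Of 24 neutrophil markers tested, 5 rose and 0 fell in p38DN blood (4 and 1 without the 4 arrays), where 17.6% of all genes rose, and 16 rose and 0 fell in p38WT blood, where 15% of all genes rose. Of 17 monocyte markers, 5 rose and 3 fell in p38DN blood (4 and 5 without the 4 arrays), and 3 rose and 4 fell in p38WT blood. Of 12 heart muscle markers tested, 0 rose and 1 fell in each of p38DN and p38WT blood. These counts do not show single arrays. The mean level of the heart muscle markers was 2.67 on p38WT irradiated array 2 and 1.85 on p38DN irradiated array 3. It was 1.51 and 0.25 on p38WT unirradiated arrays 1 and 3, and negative on every other array. The part of heart muscle RNA in the differences given here was not tested. Of 45 hepatocyte markers, 0 rose and 3 fell in p38DN blood (1 and 0 without the 4 arrays, which were chosen by these markers), and 1 rose and 0 fell in p38WT blood.

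The genes whose levels were most like those of Saa3 over the 30 arrays, by Pearson's r among 18456 genes, were Calml4 and Aen (0.88 each), Fabp7 and Rhoc (0.87 each), Serpinb2 (0.83), and Marco, Cav2 and Pmp22 (0.82 each). Their r with the hepatocyte score lay between -0.11 and 0.18. All 8, chosen for likeness to a gene that rose there, rose in p38DN blood too, by 2.07 to 4.89. In p38WT blood, Aen, Serpinb2, Marco, Cav2 and Pmp22 rose and Calml4, Fabp7 and Rhoc did not pass (adjusted p = 0.166, 0.0907 and 0.557). Serpinb2, a plasminogen activator inhibitor of monocytes and macrophages, had no overlap between irradiated and unirradiated arrays in any of the 3 genotypes. Of the 8, no other gene did so in all 3. All irradiated arrays lay above all unirradiated ones for 12.7% of all genes in p38WT, 12.4% in p38DN and 7.23% in p38DKI blood. Serpinb2 was chosen for likeness to Saa3 over these same arrays.

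Among the genes most like Saa1 were F7 (0.88), F10 and Nr1d1 (0.87 each), Klf9 and Fkbp9 (0.85 each), and Aspa and Tmem176a (0.84 each). F7 and F10 encode clotting factors. Their r with the hepatocyte score was higher, from 0.38 to 0.62. F10 rose in p38DN blood, by 1.29 (adjusted p = 0.0261), and in p38WT blood, by 1.81 (adjusted p = 0.00245), and averaged 4.70 ± 0.46 in p38WT irradiated and 2.89 ± 0.33 in p38WT unirradiated blood (SD, n = 5 each).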

How the data were processed

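Blood RNA was hybridised to 30 arrays with a single dye, and per the file headers the spots were read with Agilent Feature Extraction, which the submitters' processing notes give as version 12.0.2. Per the file headers, the deposited processed signal is a background-subtracted, detrended intensity, and the flags for spots well above background are the scanner software's own. The deposited value table is in log2 and equals the log2 intensity minus 1 constant per array (-0.64 to 1.16) for the members, so its centring is per array and its direction that of the signal. Its column medians are 4.77 to 5.77, and it was used as an alternative.

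Intensity was taken to log2, marked outlier spots were left out, repeated spots averaged, and the 75th percentile of each array subtracted. Probes well above background on at least 4 of 5 arrays of a group and with a value on at least 20 arrays were kept (23617), and the brightest stood for a gene (18726). Of 39429 probes, 29056 were named by RefSeq accession, 3150 by symbol and 116 by synonym, and 7107 kept the file's name. All 6 groups were fitted together with limma 3.58.1 (24 residual degrees of freedom), with Benjamini-Hochberg adjustment over all genes and a threshold of 0.05. The labels call replicates independent experiments at each genotype and treatment and do not say more of them. The steps were tested on simulated data.

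The members and gene lists were chosen with earlier results of these data known. Named genes were the 4 members, Alb, 14 genes of the lists picked by name, up to 3 further members of a list with the smallest p in a tested comparison, and the 8 most like Saa1 and the 8 most like Saa3. One of the genes this rule names is not reported here. The labels do not say that replicate numbers pair arrays, and the deviations of same-numbered arrays from their group means correlated at -0.31 to 0.41, so the fit has no block. Same-numbered p38DN arrays shared a slide, so slide as a fixed block is the paired fit there, with Saa1 at 1.93 (adjusted p = 0.11), Saa2 at 0.85 (adjusted p = 0.721) and Saa3 at 4.86 (adjusted p = 0.00331), and no call changed. Alternatives covered background correction, scaling, filters, slides, liver RNA and single arrays. Averaging p38DN unirradiated arrays 4 and 5, recounting lists and named genes without liver-rich arrays, and Socs3 without 1 array were chosen after seeing the data. So was raising dim unirradiated Saa2 signals to the lowest signal well above background. R 4.3.3, data.table (version 1.17.8), Python 3.11.15, numpy 2.4.6, pandas 2.3.3 and matplotlib 3.10.9 were used.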

Additional observations from a re-analysis of the deposited data

Results flagged for a closer look

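Dixon's criterion for a value far from the rest of its group was met by 3 of 36 combinations. These are the 4 members, Alb and the hepatocyte score in each of 6 groups. Chance alone gives about 1 in 20, but these combinations are not independent, because the score contains Alb. Saa1 on p38DN unirradiated array 2 was 6.48, against 3.49 for the nearest array of that group, and this array was among the 4 highest in the hepatocyte score. Saa2 on p38DN irradiated array 3 was -2.75, against 2.58 for the nearest, and Alb was not well above background on that array. Saa4 on p38DKI irradiated array 2 was 3.41, against -3.29 for the nearest, and this array had the highest Alb level of all 30, at 10.32. The part of liver RNA in these values was not tested.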

How the results depend on the processing

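The Saa3 rise in p38DN blood kept its direction and passed under all 19 alternatives (4.43 to 4.95, adjusted p between 5.65e-04 and 0.0348) and without any single array (4.45 to 5.40). The Saa1 rise in p38WT blood passed under 16 of 18 alternatives (2.64 to 3.94) and without any single array (2.88 to 4.02). It was 2.64 (adjusted p = 0.122) with normexp background correction and 3.94 (adjusted p = 0.316) with slide as a fixed block, which compares 3 arrays with 1. The Saa3 difference in p38WT blood passed with slide as a random block (2.48, adjusted p = 0.0468), but not with slide as a fixed block. The slide correlation in the random-block fit was negative, at -0.0513. Leaving out single arrays gave Saa3 differences in p38WT blood of 1.84 to 3.75, past the threshold without irradiated array 3 or unirradiated array 2. The Saa1 difference in p38DN blood, at 1.93, passed narrowly with only the groups compared in the fit (adjusted p = 0.05 after rounding). Its exact permutation p of 0.0476 is not adjusted over genes and is not set against that threshold. The difference was 1.61 to 2.63 without single arrays, and passed only without unirradiated array 2. For liver RNA, Saa1 and Saa2 in p38DN blood were 2.92 and 3.76 with the hepatocyte score as a covariate, 2.68 and 5.06 without the 4 highest arrays, and 2.56 and 4.90 without every array over 3 above the median score, all past the threshold. The last 2 Saa2 values rest on 2 unirradiated arrays on which its probe was not well above background. Raising these 2 to the lowest signal well above background gave 21.2-fold and 18.9-fold. p38DN irradiated array 3, also not well above background, was kept as measured, so these are not strict lower bounds. With slide as a fixed block, p38DKI minus p38WT after irradiation turned to -0.23 for Saa3, and the difference of irradiation effects turned to -0.26 for Saa1. The cause of these changes was not tested. With the replicate number as a block, Saa1 in p38WT blood was 3.45 (adjusted p = 0.00412) and Saa3 in p38DN blood 4.86 (adjusted p = 0.00118), and no call changed. Dim signal limits Saa2 and Saa4, whose probes were not well above background on many arrays.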
